A study of Mus musculus with 6 samples.

Results

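The genes described here are the sensors of the unfolded protein response, the transcription factors they control, and relatives of these factors, in hepatocytes of alcohol-fed mice. They were taken by gene name from the table of all genes and are 10 of its 25718 genes. Ern1, Eif2ak3, Atf6 and Atf6b encode proteins of the endoplasmic reticulum membrane, Xbp1, Atf4 and Ddit3 encode bZIP transcription factors downstream of them, Creb3l2 and Creb3l3 encode membrane-bound factors of the CREB3 family, and Bhlha15 encodes the secretory-cell factor MIST1. RNA was sequenced from primary hepatocytes, the main epithelial cells of liver, in 3 libraries from WT mice and 3 from S100a16KO+/- mice, and both genotypes were fed alcohol. S100a16 encodes a calcium-binding protein. In the labels the genotype of the latter is S100A16 knockdown, whereas the design text and the study's methods describe heterozygous knockout mice on a C57BL/6 background. The deletion was made with EIIa-Cre, which acts in the early embryo, so that it is not restricted to hepatocytes, and mice with 2 deleted copies did not survive according to the methods. Per the methods, males of 8 to 10 weeks received control liquid diet for 5 days, then 5% ethanol diet for 10 days and a gavage of 5 g/kg ethanol, with collection 9 h later. No pair-fed control libraries were analysed here, so the comparison is between genotypes under alcohol only. Nothing in the labels says which mouse each library came from, so p values measure the spread between these libraries.

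The unfolded protein response is the set of signals that tells the nucleus when proteins in the endoplasmic reticulum fail to fold. IRE1 (Ern1) cuts the Xbp1 mRNA and the tRNA ligase RTCB rejoins it in a new reading frame, PERK (Eif2ak3) phosphorylates eIF2alpha and so slows translation while letting ATF4 be made, and ATF6 travels to the Golgi where proteases free its transcription factor part. Activity in all of these branches is set largely by protein state, splicing and cleavage, which gene-level RNA values do not show. In liver, XBP1 also takes part in lipid synthesis and CREB3L3 (CREBH) is a liver-enriched factor that controls triglyceride and iron genes, while BHLHA15 is known as a target of XBP1 in exocrine cells.

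The Xbp1 mRNA is shown first because its level and its splicing are separate quantities. In the GENCODE M21 transcript Xbp1-201, the segment that IRE1 is known to remove was located as 26 bases between a pair of loops with the letters CNGCAG, in exon 4, at chr11:5524279-5524304 of GRCm38 on the plus strand. The transcript holds 7 such loops and 2 pairs at this distance within the coding sequence, and 1 pair was taken because its removal lengthened the open reading frame, from 267 to 371 codons. The 56 bases around it are given 5' to 3', with the removed segment in capitals.
Xbp1 segment: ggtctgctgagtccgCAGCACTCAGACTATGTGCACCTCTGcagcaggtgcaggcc
The Xbp1 values below are given per gene and do not separate mRNA with and without the capital letters. Whether reads from both forms were counted equally was not tested.

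Promoter windows of 300 bases, mostly upstream of the gene's start and reaching 50 bases past it, were taken from RefSeq on GRCm38.p6 for 9 of the 10 genes. Those of the 3 genes with at least 2-fold differences are given 5' to 3' on the strand of the gene, Eif2ak3 from chr6:70844265-70844564 (plus), Creb3l2 from chr6:37442099-37442398 (minus) and Bhlha15 from chr5:144190036-144190335 (plus). Capitals mark CCAAT and CCACG on either strand, the letters that form the ends of the endoplasmic reticulum stress element.
Eif2ak3 promoter: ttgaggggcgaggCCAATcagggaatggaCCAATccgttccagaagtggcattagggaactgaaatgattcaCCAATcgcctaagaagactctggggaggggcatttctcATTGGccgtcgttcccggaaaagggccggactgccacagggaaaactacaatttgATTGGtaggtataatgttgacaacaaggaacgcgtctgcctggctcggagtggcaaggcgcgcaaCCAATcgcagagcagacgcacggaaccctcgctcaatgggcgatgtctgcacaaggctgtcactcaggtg
Creb3l2 promoter: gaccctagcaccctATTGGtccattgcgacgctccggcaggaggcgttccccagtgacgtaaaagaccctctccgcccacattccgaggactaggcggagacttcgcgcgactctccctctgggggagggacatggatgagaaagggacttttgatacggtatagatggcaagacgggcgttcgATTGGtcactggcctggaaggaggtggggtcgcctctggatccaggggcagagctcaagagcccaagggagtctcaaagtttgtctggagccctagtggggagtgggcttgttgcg
Bhlha15 promoter: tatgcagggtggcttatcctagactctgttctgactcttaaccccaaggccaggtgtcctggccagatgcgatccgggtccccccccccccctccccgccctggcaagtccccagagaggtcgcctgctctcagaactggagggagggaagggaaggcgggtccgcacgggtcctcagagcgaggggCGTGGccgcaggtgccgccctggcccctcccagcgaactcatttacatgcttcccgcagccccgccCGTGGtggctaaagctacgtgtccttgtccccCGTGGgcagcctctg
The Eif2ak3 window held 6 CCAAT boxes and no CCACG. Of all 32851 RefSeq promoter windows, 26 (0.0791%) held at least 6 CCAAT boxes, a motif that was added after the windows were read. Creb3l2 held 2 CCAAT boxes, and 37.4% of all windows held at least 1. Bhlha15 held CCACG 3 times, always on the opposite strand, at positions -63, 4 and 36 from the start, and 32.8% of all windows held it at least once. Of the 9 genes with windows, 4 held CCACG, namely Ern1, Atf4, Creb3l3 and Bhlha15. The CCAAT box was in 6, namely Atf6b, Eif2ak3, Atf4, Ddit3, Creb3l2 and Creb3l3. These letters were thus also in Ern1, which did not pass, and in Creb3l3, which was lower. The complete element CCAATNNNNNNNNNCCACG matched in 0.119% of all windows, its second form, ERSE-II, in 0.0365%, TGACGTG of the unfolded protein response element in 2.01% and TGATGNAAT of the amino acid response element in 0.965%. None of these 4 motifs, searched on both strands, matched in the windows of the 9 genes, and neither did the E-boxes CATATG (3.91% of windows) and CAGCTG (16.3%). CCACG lies inside both forms of the stress element and CCAAT inside both as well, on opposite strands in the second form. These matches describe the letters in the windows and nothing about binding.

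The libraries held 67658095 to 71807834 estimated counts, of which 17% to 21.1% came from mitochondrial transcripts. A sequenced fragment was worth about 4 counts, so a gene listed at 0 may still have had 3 fragments, or 12 counts, a limit that covers counting error only. The targeted gene followed the labels: S100a16 had 7.67, 8.55 and 9.07 FPKM (a level scaled for transcript length and library size) in WT and 3.52, 3.17 and 2.92 FPKM in S100a16KO+/- hepatocytes. Hepatocyte markers such as Alb were abundant in every library, the 12 markers adding up to between 131589 and 145622 CPM (TMM-scaled for library size, not for length), most of it from Alb. Of these 12, Tat, Ahsg and Fgb were higher and Cyp2e1 and Ttr lower in S100a16KO+/- hepatocytes, and 7 did not pass. Markers of other liver cells moved with genotype. The summed level of 8 sinusoidal endothelial markers was 234.7 to 247.4 CPM in WT and 343.3 to 354.0 CPM in S100a16KO+/- libraries, with 7 higher and 1, Lyve1, lower, and that of 8 stellate cell markers was 40.2 to 44.1 against 71.5 to 79.2 CPM, with 4 higher. The 5 erythroid markers in the table were all lower, at 214.8 to 252.2 CPM in WT and 23.4 to 26.3 CPM in S100a16KO+/- libraries. The sum of 11 Kupffer cell and macrophage markers was 152.3 to 182.4 CPM in WT and 178.9 to 196.3 CPM in the other libraries, with 3 higher. Sums of 5 neutrophil markers (3.26 to 5.26 against 5.30 to 6.44 CPM), 7 cholangiocyte markers (14.4 to 18.9 against 12.2 to 14.8 CPM) and 9 B and T cell markers (4.11 to 4.53 against 3.55 to 5.07 CPM) were low in both genotypes. In bulk RNA, fewer cells of a type and less RNA per cell cannot be told apart, and the part of these other cells in the results below was not tested.

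Of the 9 genes measured in both genotypes, 6 were higher and 2 lower in S100a16KO+/- hepatocytes at an adjusted p under 0.05, and Ern1 did not pass. The test was edgeR's quasi-likelihood test, two-sided, with Benjamini-Hochberg adjustment over the 15957 genes tested, and SE is the standard error of a log2 fold change in that fit. Over all tested genes, 22.8% passed the same rule, 11.6% higher and 11.2% lower. The ranges of the genotypes were separate for 8 of the 9 genes, 6 higher and 2 lower, against 37.9% of all tested genes (19.2% higher and 18.6% lower). The median log2 fold change of the 9 genes was 0.35, and it was 0.01 over all tested genes. The tenth gene, Bhlha15, passed the filter on low counts only through the S100a16KO+/- libraries and is described apart. The study's own criterion asked for 2-fold changes with p under 0.05 before adjustment. The study used DESeq2 for it, whereas edgeR p values were used here, so the genes that meet it can differ from those of the study. By it Eif2ak3 and Creb3l2 were the 2 higher genes among the 9, and 0 were lower. Of all tested genes 4.52% met it, 2.90% higher and 1.62% lower.

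**Figure D1:**
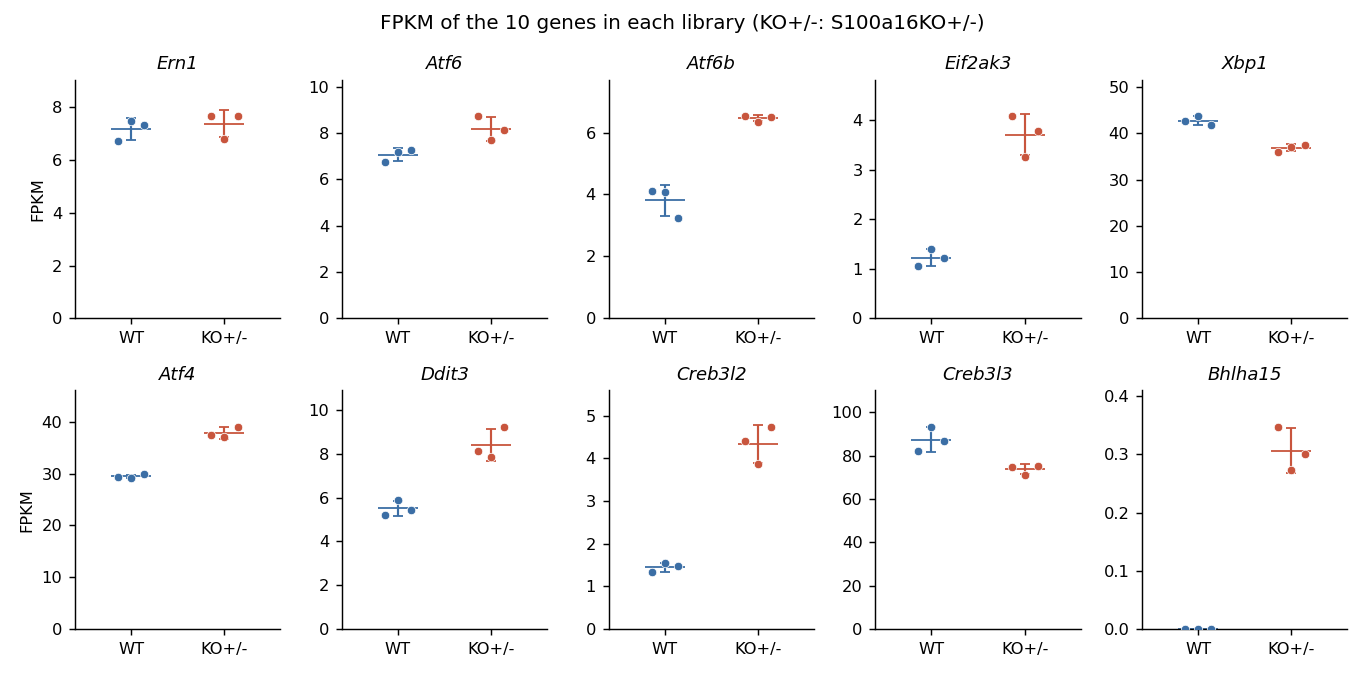
FPKM (vertical axes, each starting at 0) of the 10 genes in WT and S100a16KO+/- (KO+/-) hepatocytes. Points are libraries, horizontal bars are means and vertical bars the SD over 3 libraries. The genotypes overlap for Ern1 only, Xbp1 and Creb3l3 are lower and the other 7 genes higher in S100a16KO+/- libraries, and Bhlha15 is at 0 in WT.

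Among the sensors, the kinase gene Eif2ak3 differed most. Eif2ak3 (ENSMUSG00000031668, chr6:70844515-70905245 on GRCm38) encodes PERK, the endoplasmic reticulum kinase of eIF2alpha. Its level was 1.05, 1.41 and 1.22 FPKM in WT replicates 1, 2 and 3 and 4.09, 3.26 and 3.79 FPKM in S100a16KO+/- replicates 1, 2 and 3. Every S100a16KO+/- library was well above every WT library. In CPM it was 8.29 ± 0.855 in WT and 24.9 ± 1.89 in the S100a16KO+/- group (SD, n = 3 each), a 3.01-fold rise or 1.59 on the log2 scale (SE 0.10, edgeR adjusted p = 3.77e-08). The table places Gm43292 on the opposite strand within this gene over 2449 bases. Gm43292 had 0.00474 CPM in WT but 0.159 CPM with the deletion, far under that of Eif2ak3.

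Ern1 encodes IRE1alpha, the kinase and endoribonuclease that splices Xbp1 mRNA (ENSMUSG00000020715, chr11:106394650-106487852). Its level was 6.72, 7.5 and 7.34 FPKM in WT and 7.67, 6.79 and 7.67 FPKM in S100a16KO+/- libraries. The ranges overlapped, and the log2 fold change was 0.03 with a 95% interval from -0.08 to 0.14 (adjusted p = 0.758, edgeR). The interval for Eif2ak3, from 1.37 to 1.80, lay wholly above that of Ern1.

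Atf6 and Atf6b encode the pair of membrane-bound bZIP factors that are cleaved in the Golgi, ATF6 being the stronger activator of chaperone genes. Atf6 (ENSMUSG00000026663, chr1:170704674-170867771) had 6.74, 7.16 and 7.27 FPKM in WT and 8.73, 7.70 and 8.13 FPKM in S100a16KO+/- libraries. It was higher by 0.21 on the log2 scale (SE 0.06, edgeR adjusted p = 0.0149), a small difference with no overlap between genotypes. This call was lost without WT replicate 2 (log2 fold change 0.19, adjusted p = 0.0679) and without S100a16KO+/- replicate 1 (0.17, adjusted p = 0.0869). Atf6b (ENSMUSG00000015461, chr17:34647146-34655074) had 4.10, 4.09 and 3.24 FPKM in WT and 6.53, 6.35 and 6.49 FPKM in S100a16KO+/- libraries. All S100a16KO+/- libraries were high and close together, while WT replicate 3 was the lowest of the 6. In CPM, Atf6b was 11.8 ± 1.78 in WT and 19.9 ± 0.738 in the S100a16KO+/- group (SD, n = 3 each), higher by 0.75 on the log2 scale (SE 0.11, edgeR adjusted p = 0.000131). It stayed between 0.64 and 0.85 with each library left out in turn.

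Xbp1 encodes the bZIP factor made from the mRNA that IRE1 splices (ENSMUSG00000020484, chr11:5520659-5525893). Its level was 42.7, 43.7 and 41.8 FPKM in WT and 36.1, 37.1 and 37.5 FPKM in S100a16KO+/- libraries. Every S100a16KO+/- library was below every WT library. On the CPM scale Xbp1 was at 155.7 ± 7.28 in WT and 133.7 ± 7.5 in S100a16KO+/- hepatocytes (SD, n = 3 each), 85.9% of the WT level. Its difference was -0.22 on the log2 scale (SE 0.06, edgeR adjusted p = 0.0137). The call did not hold without WT replicate 1 (-0.18, adjusted p = 0.0603), without S100a16KO+/- replicate 1 (-0.19, adjusted p = 0.0706) or without S100a16KO+/- replicate 3 (-0.20, adjusted p = 0.0588). The share of Xbp1 mRNA without the 26-base segment was not analysed here.

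Atf4 encodes the bZIP factor whose translation rises when eIF2alpha is phosphorylated (ENSMUSG00000042406, chr15:80255184-80257541). Its level was 29.4, 29.2 and 29.9 FPKM in WT and 37.5, 37.0 and 39.0 FPKM in S100a16KO+/- libraries. The genotypes were well apart relative to their spread, and Atf4 was higher by 0.35 on the log2 scale (SE 0.06, edgeR adjusted p = 0.000366). Ddit3 encodes CHOP, a bZIP factor induced through ATF4 and known for its part in stress-induced cell death (ENSMUSG00000025408, chr10:127290774-127296288). Its level was 5.18, 5.88 and 5.45 FPKM in WT and 8.12, 7.85 and 9.23 FPKM in S100a16KO+/- libraries. The lowest S100a16KO+/- library exceeded the highest WT library, and Ddit3 was higher by 0.60 on the log2 scale (SE 0.09, edgeR adjusted p = 0.000196). Ddit3 overlaps Mars1 by 68 bases on the opposite strand, and Mars1 itself had 32.4 CPM in WT and 29.4 CPM with the deletion (edgeR adjusted p = 0.391). GENCODE M21 also lists a further model named Ddit3 inside this gene, and reads may have been divided between these models, which leaves the Ddit3 level uncertain.

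**Figure D2:**
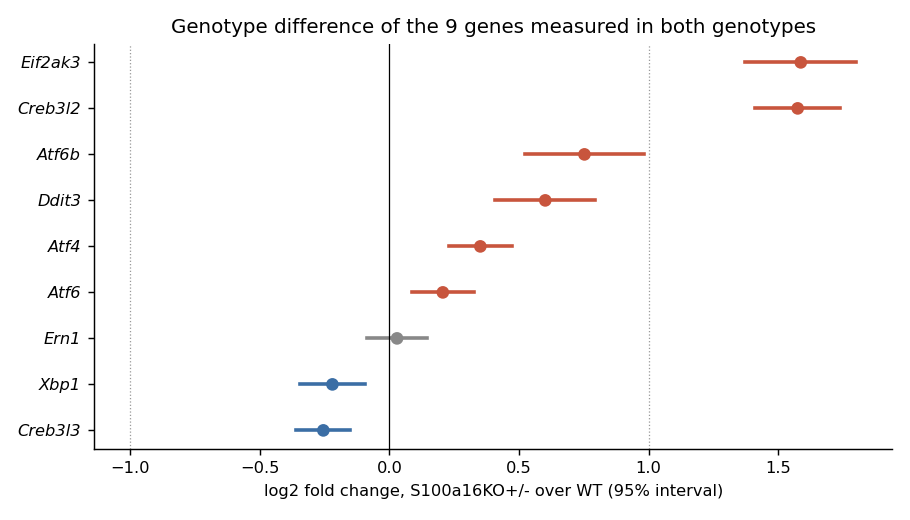
Log2 fold change of the 9 genes measured in both genotypes, S100a16KO+/- over WT, with 95% intervals from edgeR's fit. Red marks genes higher and blue genes lower at an adjusted p under 0.05, grey marks Ern1, and dotted lines stand at a 2-fold change. Eif2ak3 (1.59) and Creb3l2 (1.58) lie beyond the 2-fold line, and Xbp1 (-0.22) and Creb3l3 (-0.25) lie below 0.

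The CREB3-like factors are also held in the endoplasmic reticulum membrane and are freed by cleavage, and the pair measured here moved in opposite directions. Creb3l2 encodes BBF2H7, a factor known for inducing secretory pathway genes in cells that export matrix (ENSMUSG00000038648, chr6:37327255-37442146). It had 1.33, 1.53 and 1.47 FPKM in WT and 4.40, 3.86 and 4.74 FPKM in S100a16KO+/- libraries. All S100a16KO+/- libraries were far above all WT libraries. In CPM it was 11.8 ± 0.341 in WT and 35.1 ± 1.94 in the S100a16KO+/- group (SD, n = 3 each), a 2.98-fold rise or 1.58 on the log2 scale (SE 0.08, edgeR adjusted p = 2.43e-09). Of the tested genes, 239 (1.5%) had a larger log2 fold change. Stellate cells are among the cells that export matrix. Of the 8 stellate markers, 4 were higher in S100a16KO+/- libraries, while Col1a1, Col3a1, Pdgfrb and Des did not pass. Of the 8 sinusoidal endothelial markers, 7 were higher and 1 lower. The part of either cell type in the rise of Creb3l2 was not tested.

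Creb3l3 encodes CREBH (ENSMUSG00000035041, chr10:81084324-81098874) and was the most abundant of the 10 genes per length in both genotypes. Its level was 82.1, 93.3 and 86.9 FPKM in WT and 74.8, 70.9 and 75.0 FPKM in S100a16KO+/- libraries. Every S100a16KO+/- library was lower than every WT library. It fell to 83.8% of the WT level in CPM, or by -0.25 on the log2 scale (SE 0.05, edgeR adjusted p = 0.0015), and the value stayed between -0.27 and -0.23 with each library left out.

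Bhlha15 encodes MIST1, a bHLH factor of exocrine and plasma cells (ENSMUSG00000052271, chr5:144190286-144194441). It had 0 counts in each WT library and 93, 73 and 82 estimated counts in S100a16KO+/- replicates 1, 2 and 3. This is 0.347, 0.273 and 0.300 FPKM in the S100a16KO+/- libraries, a low level at which the 3 libraries still lay close together. Set against the 12 counts that a count of 0 allows in each WT library, the mean of 1.21 ± 0.118 CPM (SD, n = 3) was at least 6.93-fold higher. No other gene of the table overlaps it. Markers of the other cell types that use Bhlha15 were examined beside it. Of 10 plasma cell markers, 9 were in the table, and their summed level was 220.7 to 240.9 CPM in WT and 198.2 to 210.7 CPM in S100a16KO+/- libraries, most of it from Sdc1, which hepatocytes also express. Sdc1 itself was lower (log2 fold change -0.18, adjusted p = 0.0263, edgeR), and 0 of the 9 were called higher. The plasma cell gene Jchain had 63 to 78 counts in WT and 51 to 89 counts in S100a16KO+/- libraries. Prdm1, not tested, had 6, 4 and 9 counts in WT and 34, 4 and 15 counts in S100a16KO+/- libraries. The part of plasma cells in the Bhlha15 counts was not tested. Of 10 pancreatic acinar markers, 4 were in the table, with sums of 3.46 to 4.91 CPM in WT and 3.80 to 5.22 CPM in S100a16KO+/- libraries. Most of that came from Cela1, and Amy2a5 had at most 2 counts and Cpb1 at most 3 in any library. The low counts kept Amy2a5 and Cpb1 out of the test, and Cela1 (adjusted p = 0.874) and Cela2a (adjusted p = 0.445, edgeR) did not pass it.

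The order of levels per length changed between genotypes for some genes. Ddit3 was below Ern1 in WT (order 6 and 4) and above it in S100a16KO+/- hepatocytes (order 4 and 6), without overlap in either genotype. In WT hepatocytes the mean FPKM was 87.4 for Creb3l3, 42.8 for Xbp1, 29.5 for Atf4, 7.19 for Ern1, 7.06 for Atf6, 5.50 for Ddit3, 3.81 for Atf6b, 1.44 for Creb3l2 and 1.23 for Eif2ak3. Ern1 and Atf6 overlapped there, as did Creb3l2 and Eif2ak3, and the other neighbours did not. In S100a16KO+/- hepatocytes Creb3l3 was again first at 73.6 FPKM, but Atf4 (37.8) and Xbp1 (36.9) overlapped, and so did Ddit3 (8.40) with Atf6 (8.19), followed by Ern1 at 7.38 FPKM and Atf6b at 6.46 FPKM. Creb3l2 (4.33) and Eif2ak3 (3.71) overlapped in this genotype too. Creb3l3, Xbp1 and Atf4 ranked 402, 746 and 850 among all genes of the table by mean FPKM over the 6 libraries, so that the transcripts of 3 transcription factor genes were several times as abundant per length as those of any sensor.

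Likeness of pattern was measured as Pearson's r of log2(FPKM + 0.1) over the 6 libraries, among tested genes with a mean of at least 1 FPKM. The genes most like Bhlha15 were Cyp2b13, Pdia4 and Fndc3a (r = 0.999 for each), and 121 of 9043 genes had an r of at least 0.99. Among those most like Xbp1 were Hspb1 (r = 0.998) and 5730414N17Rik (r = 0.997), and 15 genes had an r of at least 0.99. With 6 libraries in 2 groups such values mostly record the genotype difference that all of these genes share.

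Genes around the sensors and factors were taken from 10 lists, which were written with earlier results of these data known, and the 10 genes themselves were left out of them. Of 122 tested genes in these lists, 52 were higher and 14 lower in S100a16KO+/- hepatocytes at an adjusted p under 0.05 in edgeR, beside 11.6% and 11.2% of all tested genes. The lists share genes, so their rises are not separate. For example, Sec61a1, Pdia6, Sec24d and Dnajc3 are also in the XBP1 list, and Hspa5 and Dnajc3 also in the ATF6 list. The genes attributed to ATF6 and XBP1 were mostly higher, and those attributed to ATF4 and CHOP were not.

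The ATF6 list held 13 tested genes, which fold or clear proteins in the secretory pathway, and all 13 were higher, with a median log2 fold change of 1.76. Xbp1 and Ddit3 are also attributed to ATF6 but were left out of the list as part of the 10 genes. Of them, Xbp1 was lower (-0.22) and Ddit3 higher (0.60). The largest rises were those of Derl3 (3.76), a degradation factor, Creld2 (3.50), a secreted chaperone, and Manf (2.92), the secreted neurotrophic factor on which the study centred. Manf was picked by the study from the same libraries, so that its rise here is no independent evidence. The study also reported higher Manf mRNA and protein by other assays, which were not analysed here. By western blot of liver from alcohol-fed mice, it reported lower GRP78, ATF4 and ATF6 protein in S100a16KO+/- mice. Phosphorylation of IRE1alpha and eIF2alpha was also reported as lower there. In these hepatocyte libraries the mRNAs of Hspa5 (2.47), which encodes GRP78, Atf4 (0.35) and Atf6 (0.21) were higher. Liver protein and hepatocyte mRNA are unlike measures, and the reason for the difference was not tested. The XBP1 list held 19 tested genes, of which 17 were higher and 2, Sec61g and Wipi1, did not pass (these 2 were named after their values were seen), with a median of 0.73. Its largest rises were those of the ubiquitin ligase gene Syvn1 (2.21), the cochaperone gene Dnajb9 (1.77) and the signal recognition particle receptor gene Srprb (1.26). Xbp1 itself was at 85.9% of the WT level in the same libraries.

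The list of IRE1 partners and of the ligase complex that rejoins Xbp1 mRNA held 11 tested genes, 4 of them higher. The largest rises were those of the translocon gene Sec61a1 (log2 fold change 1.04), the disulfide isomerase gene Pdia6 (0.81) and the kinase gene Map3k5 (0.45). The ligase gene Rtcb was at 33.3 CPM in both genotypes (adjusted p = 0.993, edgeR). Of 6 mRNAs known to be degraded by IRE1, 3 were higher and 1 lower, with a median of 0.63. Scara3 (0.0875 FPKM in WT) and Pdgfrb (0.109 FPKM) did not pass. Like Col6a1 (0.112 FPKM) they were at low levels, so the median rests partly on weakly measured genes. Col6a1 (1.58), Sparc (0.48) and Hgsnat (0.31) rose, and Bloc1s1 fell from 16.4 to 12.6 CPM (-0.38, adjusted p = 0.0147, edgeR), a call that was lost in 3 of the 6 fits with 1 library left out: without WT replicate 1, without WT replicate 3 and without S100a16KO+/- replicate 1. Col6a1 and Sparc are matrix genes. Of the 8 stellate markers, Dcn, Lrat, Colec11 and Reln were higher in the same libraries, while Col1a1 (edgeR adjusted p = 0.914), Col3a1 (0.140), Pdgfrb (0.155) and Des (0.183) did not pass, and the part of stellate cells in these rises was not tested.

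Of 9 genes for the retention, transport and cleavage of ATF6, 6 were higher, with a median of 0.36. These were led by Hspa5 (2.47), which encodes the chaperone GRP78 that holds the sensors inactive, Sec24d (1.2), which encodes a coat protein of transport vesicles, and the disulfide isomerase gene Pdia5 (0.55). The protease genes Mbtps1 (46.9 CPM in WT, 46.2 CPM with the deletion, adjusted p = 0.865) and Mbtps2 (7.89 and 7.59 CPM, adjusted p = 0.807, edgeR) did not pass, and they were named after their values were seen.

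Around PERK, 15 genes of the eIF2alpha kinases, phosphatases and eIF2B were tested, and 3 were higher and 2 lower, with a median of 0.08. Dnajc3 (0.73), which encodes the kinase inhibitor P58IPK, Ppp1r15a (0.57), which encodes the stress-induced phosphatase subunit GADD34, and the adaptor gene Nck1 (0.38) rose. Ppp1r15b, the constitutive counterpart of Ppp1r15a, fell from 101.6 to 64.7 CPM (log2 fold change -0.65, adjusted p = 8.75e-07, edgeR). The phosphatase subunits thus moved in opposite directions. Eif2ak2, the double-stranded RNA kinase gene, was just past the threshold (-0.32, adjusted p = 0.0471, edgeR), and the number of lower genes was 1 without any one of the 6 libraries. Eif2s1, which encodes eIF2alpha, was at 22.4 CPM in WT and 23.1 CPM with the deletion (edgeR adjusted p = 0.759).

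**Figure D3:**
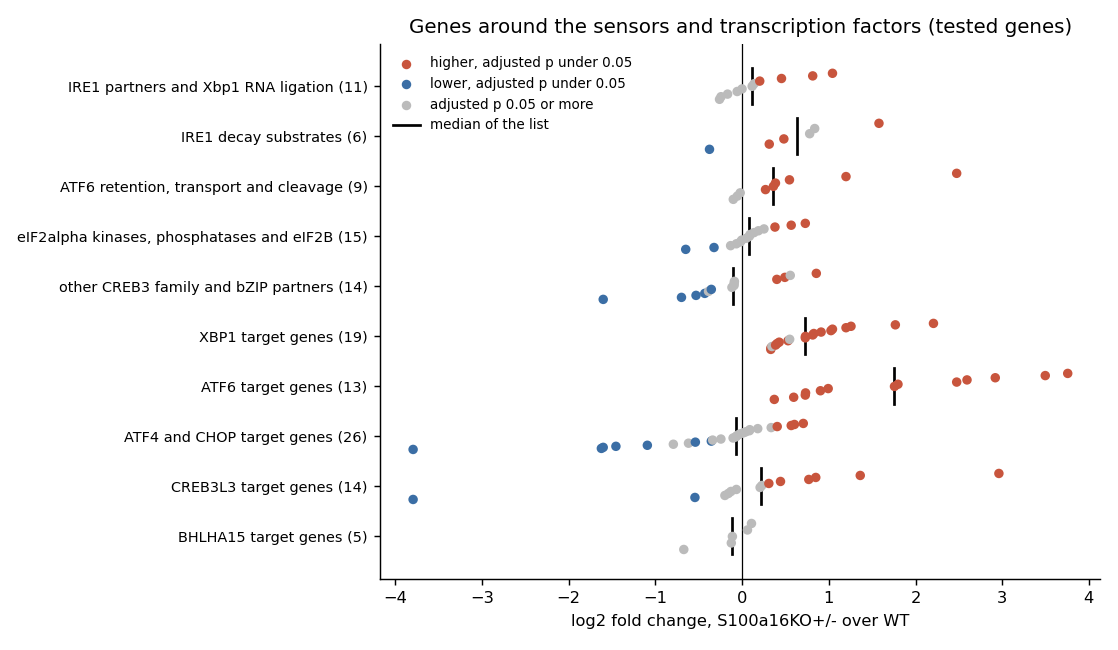
Log2 fold change, S100a16KO+/- over WT, of each tested gene in the 10 lists, with the number of tested genes in brackets. Red and blue points are genes higher and lower at an adjusted p under 0.05, grey points did not pass, and black bars are list medians. All 13 tested genes of the ATF6 list, from which Xbp1 and Ddit3 were left out, lie above 0 with a median of 1.76. The 26 ATF4 and CHOP targets have a median of -0.07.

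Atf4 and Ddit3 mRNA were higher, but of 26 tested target genes attributed to ATF4 and CHOP, 4 were higher and 7 lower, with a median log2 fold change of -0.07. Those that rose most were Cth (0.71), a transsulfuration enzyme gene, Bcl2l11 (0.60), which encodes the death factor BIM, and Ppp1r15a (0.57). Those that fell most were Fgf21 (-3.80), a hepatokine gene, from 105.9 to 7.64 CPM, the pseudokinase gene Trib3 (-1.62), from 54.8 to 17.8 CPM, and the repressor gene Atf3 (-1.60), from 16.7 to 5.50 CPM. Asns, a classical amino acid response gene, was at 3.44 CPM in WT and 3.34 CPM with the deletion (edgeR adjusted p = 0.894) and was named after its values were seen.

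Of 14 tested genes among other CREB3 factors and bZIP partners, 3 were higher and 5 lower, with a median of -0.11. Cebpd (0.86), Cebpb (0.49) and Creb3 (0.40) rose, and Atf3 (-1.60), Cebpa (-0.70), the hepatocyte differentiation factor, and Nfe2l2 (-0.53), the oxidative stress factor, fell. Of 14 tested genes attributed to CREB3L3, 6 were higher and 2 lower, with a median of 0.22. Hamp, the iron hormone gene hepcidin, had the largest rise (2.96), from 89.2 to 695.3 CPM, followed by Pck1 (1.36) of gluconeogenesis and Apoa5 (0.85), an activator of triglyceride hydrolysis, while Fgf21 and the fatty acid-binding protein gene Fabp1 (-0.54) fell. Creb3l3 mRNA was lower in the same libraries. Of 5 tested genes attributed to BHLHA15, 0 passed in edgeR, in DESeq2 or in limma voom, and 0 had an unadjusted p under 0.05. Its secretory vesicle gene Rab3d was at 8.80 CPM in WT and 9.48 CPM with the deletion (edgeR adjusted p = 0.562).

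The 9 genes kept their directions under 17 other settings of scaling, test, filter and left-out library, and the lowest values of Eif2ak3 (1.08) and Creb3l2 (1.12) came from log2(FPKM + 1), a scale that compresses changes at low levels.

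**Figure D4:**
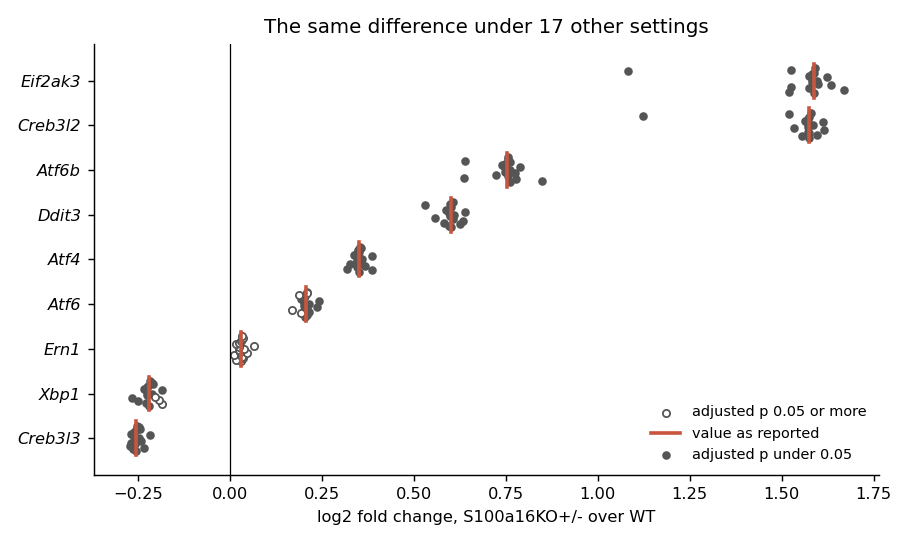
Log2 fold change of the 9 genes, S100a16KO+/- over WT, as reported (red bars) and under 17 other settings (points). Filled points have an adjusted p under 0.05, open points 0.05 or more. All points keep the side of 0 of the reported value, and open points occur for Ern1, Atf6 and Xbp1.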

How the data were processed

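RNA-seq of primary hepatocytes was analysed in 3 WT and 3 S100a16KO+/- libraries. Per the labels, libraries were poly(A)-selected and strand-specific, with molecular identifiers. The submitters' processing notes name cutadapt 1.9, HISAT2 2.0.4, UMI-tools, StringTie 1.3.4d, DESeq2, edgeR and the build mm10, without roles, and the annotation and strand setting are not given in the sources used here. The authors deposited estimated counts, not scaled for library size, and FPKM values, scaled for length and library size. Totals ran from 67658095 to 71807834.

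The estimated counts, rounded, were compared with edgeR 4.0.16 (R 4.3.3) using TMM, filterByExpr and a robust quasi-likelihood fit without covariates, two-sided, with Benjamini-Hochberg adjustment over 15957 genes. Standard errors and 95% intervals come from that fit. DESeq2 1.42.0, limma 3.58.1, other scalings, filters, pseudocounts, a block for replicate number and omission of single libraries were alternatives. On simulated counts edgeR recovered 30 of 67 genes changed 1.5-fold, 56 of 67 changed 2-fold and 63 of 66 changed 4-fold, among 15639 tested. It also made 15 false calls among unchanged genes.

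The genes and lists were chosen with earlier results of these data known. All 10 genes are named. Of each list, up to 3 called genes with the largest rise and up to 3 with the largest fall are named, with S100a16 and Manf. Rtcb, Mbtps1, Mbtps2, Eif2s1, Asns, Rab3d, Sec61g, Wipi1, Scara3 and the markers named singly were chosen after their values were seen. Of all listed genes and markers, 13 were not found by name and were not analysed here. A gene that the rule on likeness names is not reported here.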

Additional observations from a re-analysis of the deposited data

How the results depend on the processing

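The log2 fold changes of the 10 genes and of S100a16 kept their direction under the settings tried. For the listed pathway genes only the numbers of calls were followed. Of the 9 genes measured in both genotypes, 6 were higher and 2 lower at an adjusted p under 0.05. With 1 library left out these counts ran from 5 to 6 and from 1 to 2. With the study's criterion on edgeR p values they were 2 and 0, where edgeR and DESeq2 without the fold limit each called 2 lower. Bhlha15 passed the filter through the S100a16KO+/- libraries alone, so it had to be higher there to be tested, and its call is no support. Counting it gives 7 higher, 6 to 7 with 1 library left out and 3 with the study's criterion. The lower count was 1 without WT replicate 1, without S100a16KO+/- replicate 1 and without S100a16KO+/- replicate 3, each time because Xbp1 lost its call. Atf6 also missed the threshold in limma on log2(FPKM + 1) (0.19, adjusted p = 0.08) and on log2(FPKM + 0.1) (0.21, adjusted p = 0.0819), and the cause was not tested. Among the listed pathway genes, 48 to 55 were higher and 12 to 16 lower over all settings. Bhlha15 was not tested in the 2 FPKM settings, since its mean is under 1 FPKM. Equal replicate numbers showed no strong shared deviation (correlations of -0.00617, -0.0163 and 0.000454 over genes). With 3 libraries per genotype this cannot exclude a pairing, and nothing in the labels states one. Under the replicate block, 6 of the 9 genes were higher and 2 lower, with adjusted p = 0.045 for Atf6 and 0.0373 for Xbp1. Division of the counts by 4 was chosen after seeing the data and changed no call among the 10 genes. With 3 libraries per genotype, differences near 1.5-fold were recovered less often than larger ones in simulated counts. A far smaller share of genes was changed in the simulation than passed in these data (22.8%), which alters the adjusted threshold. The recovery rates therefore need not hold for these data.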
